A study of Homo sapiens with 6 samples.

Results

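The 10 genes described here make, load, lock, release and cut the cohesin ring. They were taken as the rows named SMC1A, SMC3, RAD21, STAG1, STAG2, NIPBL, WAPL, ESCO2, ESPL1 and PTTG1 in the deposited gene table, and are 10 of its 63236 genes. RNA came from FUJIOKA, a human acute myeloid leukaemia cell line, stably transduced with a doxycycline-inducible lentiviral vector and selected with puromycin. The shNEG group (3 libraries) carried a scrambled, non-targeting shRNA and the shSPINK2 group (3 libraries) an shRNA against SPINK2, which encodes a Kazal-type protease inhibitor. Cells of both groups thus carried the vector, and how long they had been on doxycycline when harvested is not given in the sources used here. The sample labels name 2 SPINK2 shRNAs and the methods only shRNA1. No link from shRNA to library is given, so the shSPINK2 libraries were treated as 1 group. All libraries come from 1 cell line, nothing says whether they were grown as separate cultures, and the p-values below then measure only the spread between these libraries.

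Cohesin is a ring that holds sister chromatids together from replication until anaphase and shapes chromatin loops in interphase. SMC1A and SMC3 are its ATPase arms, RAD21 is the kleisin that closes it, and either STAG1 or STAG2 is attached to the kleisin. NIPBL loads the ring onto DNA, WAPL opens it again, and ESCO2 acetylates SMC3 in S phase so that the ring stays shut behind the fork. At anaphase separase, encoded by ESPL1, cuts RAD21 once securin, encoded by PTTG1, has been destroyed. Several ring genes, STAG2 most often, are mutated in myeloid leukaemias.

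The table holds 1 mean per gene, from which the whole reads of each library were recovered (26280 genes, all 10 members included). Reads over these genes ran from 26944717 to 27908500 per library, and the size factors from 0.985 to 1.03. Libraries within a group are called a, b and c in the order of their size factors, since the reads carry no replicate number. Values are reads divided by the size factor (normalised reads) unless stated otherwise. The targeted gene SPINK2 stood at 53.1, 63.0 and 55.8 in shNEG and at 6.09, 8.92 and 6.78 in shSPINK2, a log2 fold change of -2.98 ± 0.40 (SE; DESeq2 adjusted p = 9.85e-13), with every shSPINK2 library below every shNEG library. Replicates correlated with Pearson's r of 0.997 to 0.998 across 12324 genes, and the shSPINK2 libraries were spread more widely than the shNEG libraries, with a mean chi-square per gene of 4.99 to 7.37 against 1.87 to 2.59. Myeloid markers were expressed (CD33 at 6822 in shNEG and 8732 in shSPINK2, MPO at 2095 and 1593), CD34 was low at a mean of 19.6 and KIT at 0.666. The erythroid markers HBB and HBA1 were at 0. The epithelial or packaging cell markers were mixed, with EPCAM and KRT18 at 0 and CDH1 at a mean of 0.165. KRT8, of the same list, stood at 104 in shNEG and 88.6 in shSPINK2 and was not called. The highest marker of another cell type was CD79A, at 147 in shNEG and 220 in shSPINK2.

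Of the 10 members, 7 were lower in SPINK2-deficient cells at an adjusted p under 0.05 (DESeq2, Wald test, Benjamini-Hochberg over 17618 genes) and 0 were higher. With edgeR's quasi-likelihood test the counts were also 7 and 0, and WAPL was the 1 member with an unadjusted p under 0.05 that was not called. All 10 passed the filter on low values. Over all genes tested, 23.9% were lower and 22% higher, and among the genes with a mean of at least 1000 normalised reads, where all 10 members lie, 38.5% were lower. The median log2 fold change of the members was -0.52 and that of all genes tested 0.00434. Members lower by more than 1 on the log2 scale were ESPL1 and ESCO2, that is 2 of 10, against 2.71% of all genes tested. In 8 members the libraries of both groups did not overlap, and in each of them every shSPINK2 library lay below every shNEG library, as it did in 29.5% of all genes tested. The shares of 2.71% and 29.5% cover all genes tested and were not computed for genes with a mean of at least 1000. In bulk RNA, fewer cells that carry a transcript and less of it per cell cannot be told apart. Protein of these genes was not measured, so all changes given here are changes in RNA.

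**Figure D1:**
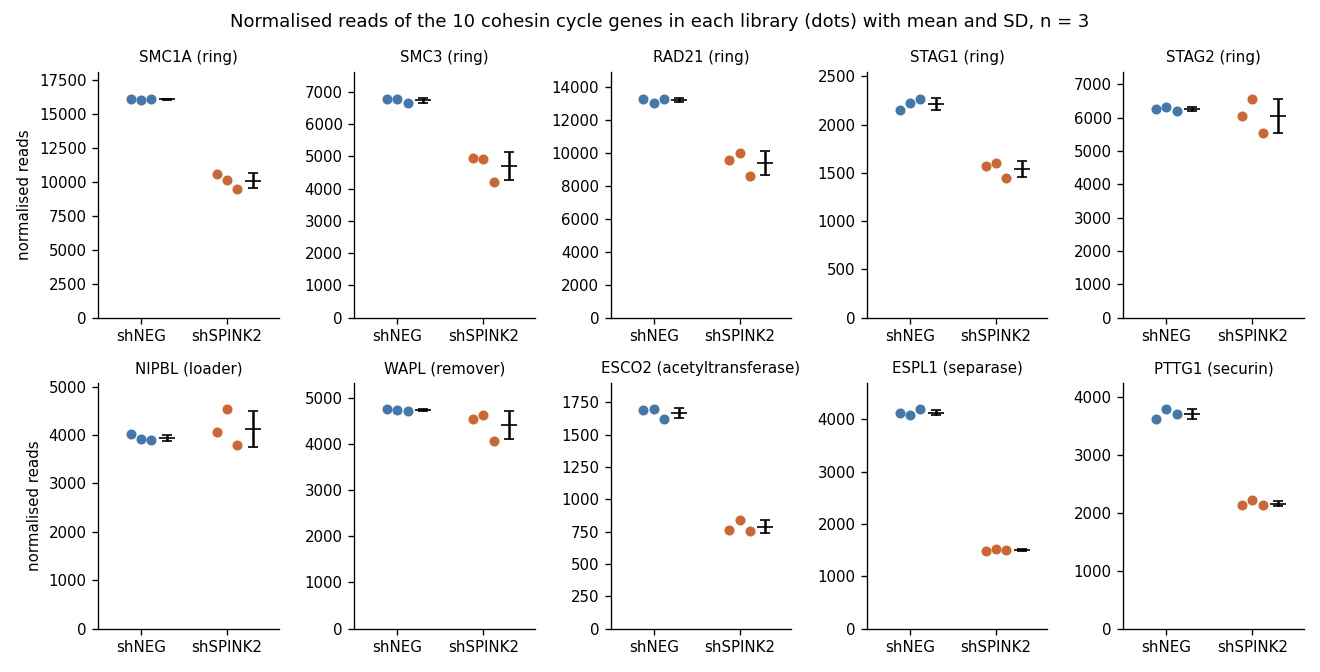
Normalised reads of each of the 10 genes (vertical axes, each starting at 0) in the 3 shNEG libraries (blue) and the 3 shSPINK2 libraries (orange), left to right a, b and c, with mean and SD beside them. The groups stand apart in 8 panels, and the dots overlap for STAG2 and NIPBL.

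RNA of the ring genes fell unevenly, with 4 of the 5 genes lower and STAG2 not called. SMC1A, an ATPase arm, counted 16138, 16014 and 16106 normalised reads in shNEG and 10588, 10174 and 9491 in shSPINK2. The 3 shNEG libraries lay close together and above all shSPINK2 libraries. The log2 fold change was -0.67 ± 0.04 (SE, n = 3 per group; adjusted p = 3.08e-54), so SMC1A fell by 37.3%. SMC3, the arm that ESCO2 acetylates, counted 6786, 6783 and 6650 in shNEG against 4946, 4930 and 4193 in shSPINK2. Library c was the lowest of the shSPINK2 libraries, and all of them were below the control. Its log2 fold change was -0.52 ± 0.06 (adjusted p = 4.43e-20), and its 95% interval, -0.63 to -0.41, overlapped that of SMC1A, -0.76 to -0.59.

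RAD21, the kleisin and the substrate of separase, moved by about as much as SMC3. It counted 13269, 13022 and 13235 in shNEG and 9541, 9958 and 8556 in shSPINK2. The log2 fold change was -0.49 ± 0.05 (adjusted p = 1.92e-22). The 95% interval of RAD21, -0.59 to -0.40, overlapped that of SMC3. All shSPINK2 libraries of SMC1A, SMC3 and RAD21 were below all shNEG libraries.

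The STAG paralogues, of which a ring carries one, differed. STAG1 counted 2146, 2222 and 2268 in shNEG and 1571, 1604 and 1444 in shSPINK2, and fell by 0.52 ± 0.06 on the log2 scale (adjusted p = 1.51e-19). STAG2 counted 6264, 6322 and 6206 in shNEG and 6046, 6566 and 5546 in shSPINK2. Here the shSPINK2 libraries lay on both sides of the control, and the log2 fold change was -0.05 ± 0.05 (adjusted p = 0.489). The 95% interval of STAG2, -0.15 to 0.05, did not overlap that of STAG1, -0.63 to -0.41. The value of STAG2 rested on single libraries: without shSPINK2 library b it was -0.11 (adjusted p = 0.0331) and without shSPINK2 library c it was 0.01 (adjusted p = 0.894).

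Neither the loader nor the remover was called. NIPBL, the loader, counted 4020, 3917 and 3898 in shNEG and 4066, 4529 and 3794 in shSPINK2. The log2 fold change was 0.07 ± 0.06 (95% interval -0.04 to 0.18, adjusted p = 0.368). WAPL, the remover, counted 4747, 4734 and 4711 in shNEG and 4551, 4618 and 4071 in shSPINK2. Every shSPINK2 library of WAPL was below the control, yet the log2 fold change of -0.10 ± 0.05 (95% interval -0.20 to -0.0024) did not pass after adjustment (adjusted p = 0.0898). Both depended on shSPINK2 libraries b and c. Without library b WAPL was called lower (-0.13, adjusted p = 0.0203) and NIPBL stood at -0.01 (adjusted p = 0.941), and without library c NIPBL was called higher (0.12, adjusted p = 0.0437) and WAPL stood at -0.05 (adjusted p = 0.439). The lower 95% bound of the percent change was -10.1% for STAG2, -3.04% for NIPBL and -12.8% for WAPL.

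ESPL1, ESCO2 and PTTG1 had the lowest fold changes of the members. ESCO2, the S phase acetyltransferase, counted 1687, 1694 and 1618 in shNEG and 760, 843 and 757 in shSPINK2, a log2 fold change of -1.08 ± 0.06 (adjusted p = 2.06e-62). The separase gene fell further: ESPL1 counted 4128, 4077 and 4189 in shNEG and 1486, 1518 and 1497 in shSPINK2. The spread of ESPL1 was the smallest of the members in shSPINK2, with an SD of 1.08% of the mean. Its log2 fold change was -1.46 ± 0.05 (adjusted p = 1.02e-208), so ESPL1 fell by 63.7%, and 102 of the 4214 genes that were lower had a lower fold change. The gene of securin, the inhibitor of separase, fell less. PTTG1 counted 3613, 3786 and 3703 in shNEG and 2129, 2215 and 2132 in shSPINK2, and its log2 fold change was -0.78 ± 0.05 (adjusted p = 2.94e-60). The 95% intervals of ESPL1, -1.55 to -1.37, ESCO2, -1.21 to -0.96, and PTTG1, -0.87 to -0.69, did not overlap each other.

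**Figure D2:**
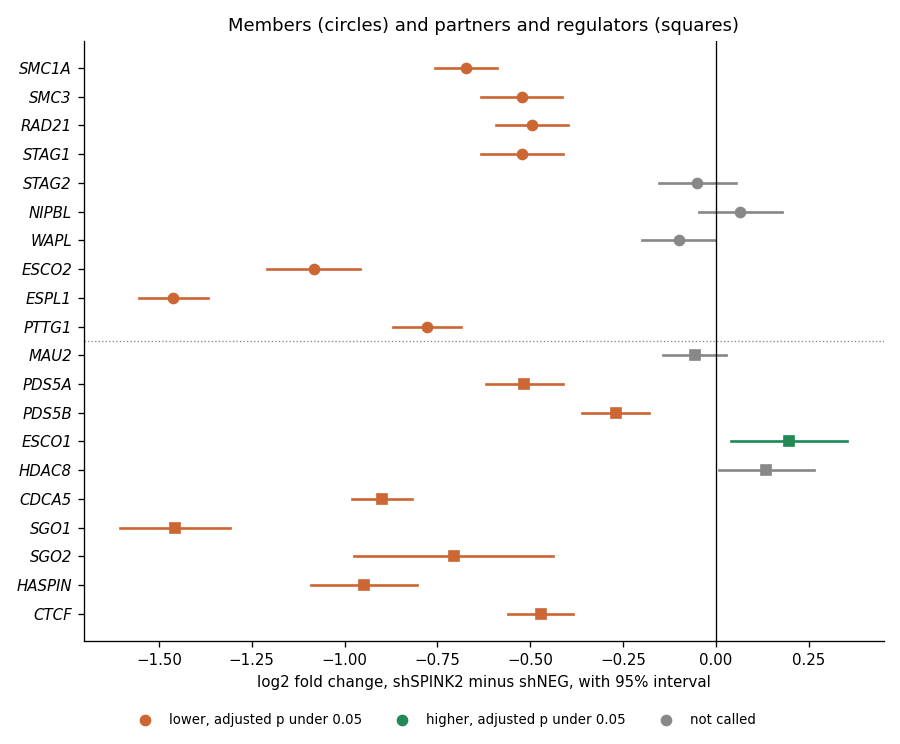
Log2 fold change of shSPINK2 against shNEG (horizontal axis) with its 95% interval for the 10 members (circles) and 10 partners and regulators (squares), coloured by the DESeq2 call. ESPL1 (-1.46) and SGO1 (-1.46) stand farthest to the left, and STAG2, NIPBL, WAPL, MAU2 and HDAC8 are near 0.

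The spread was wider in shSPINK2 than in shNEG for every member except ESPL1 and PTTG1. The SD of the members was 1.08% to 9.17% of the mean in shSPINK2 and 0.393% to 2.76% in shNEG. For ESPL1 it was 1.08% in shSPINK2 and 1.35% in shNEG, and for PTTG1 2.26% and 2.33%. In ESPL1 and PTTG1 library a was the lowest of the shSPINK2 libraries. Library c was the lowest of the shSPINK2 libraries in 8 of 10 members and library b the highest in 8 of 10, whereas over the 6730 genes with a mean of at least 1000 library c was the lowest in 56% and library b the highest in 45.8%. By the naming used here, library c is the shSPINK2 library with the largest size factor, 1.03. What part this had in the fold changes was not tested, and the 7 members called lower were also called lower with any 1 library left out.

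Ratios between genes within a library do not depend on that library's size factor, and 10 of them were compared. With 3 libraries against 3, the smallest two-sided p of the exact permutation test is 0.1, which becomes 0.111 after Benjamini-Hochberg adjustment over the 10 ratios, so none could pass 0.05. The groups did not overlap in 9 of the 10. The share over other pairs of genes was not computed, and a ratio shifts wherever the fold changes of its genes differ. The ratio of STAG1 to STAG2 reads was 0.343, 0.351 and 0.365 in shNEG and 0.260, 0.244 and 0.260 in shSPINK2, a shift in one direction in every library. Per base of canonical transcript, STAG1 made up 26.5% ± 0.63 (SD, n = 3) of both paralogues in shNEG and 20.6% ± 0.59 in shSPINK2. The size of this share depends on the length that is assumed. Per kilobase of all annotated exons summed, STAG1 and STAG2 stood at 282 and 392 in shNEG and at 196 and 379 in shSPINK2.

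Other genes were set against SMC3 in the same way. The ratio of RAD21 to SMC3 was 1.96 ± 0.04 (SD) in shNEG and 2.00 ± 0.06 in shSPINK2, with overlapping libraries (exact permutation p = 0.3, n = 3 per group). For STAG2 to SMC3 it was 0.930 ± 0.0055 and 1.29 ± 0.06. NIPBL had 0.585 ± 0.0075 reads per SMC3 read in shNEG and 0.882 ± 0.05 in shSPINK2, and WAPL 0.702 ± 0.0056 and 0.943 ± 0.03. Reads of loader and remover per read of an arm were thus higher in every shSPINK2 library than in any shNEG library. The ratio of SMC1A to SMC3 was 2.39 ± 0.03 and 2.16 ± 0.10, lower in every shSPINK2 library, and that of loader to remover, NIPBL to WAPL, was 0.834 ± 0.01 and 0.935 ± 0.04.

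Reads of ESPL1 were also lower relative to those of PTTG1 in every shSPINK2 library than in any shNEG library. The ratio of ESPL1 to PTTG1 reads was 1.14, 1.08 and 1.13 in shNEG and 0.698, 0.685 and 0.702 in shSPINK2, a log2 difference of -0.68 against a pooled SD of 0.0348. For the acetyltransferases, ESCO2 had 1.95, 1.98 and 1.91 reads per read of ESCO1, its paralogue that acts outside S phase too, in shNEG, and 0.739, 0.785 and 0.892 in shSPINK2. This ratio was lower in every shSPINK2 library than in any shNEG library. These ratios of reads are not corrected for length, and only their change between groups is read here.

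**Figure D3:**
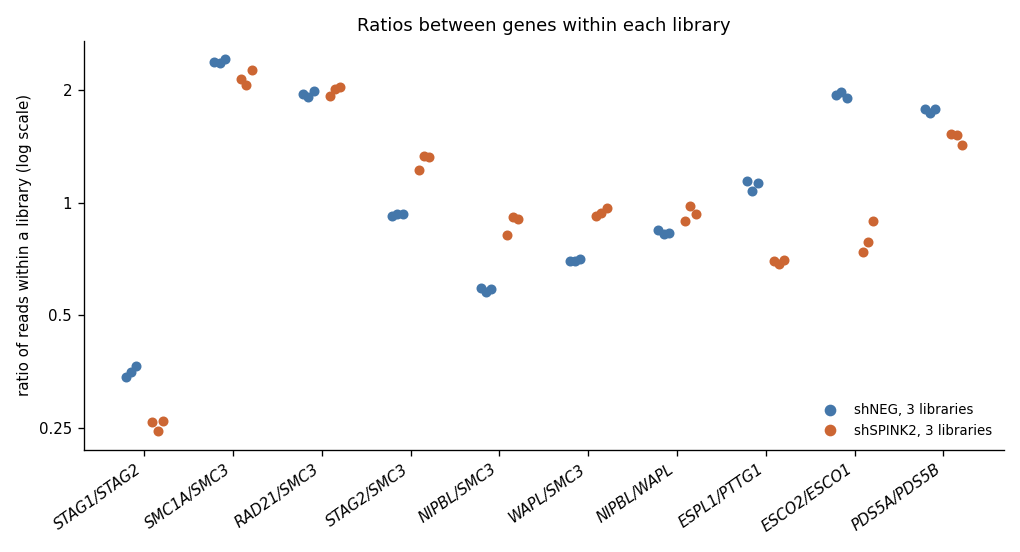
Ratio of reads of 2 genes within a library (vertical axis, log scale), for the 3 shNEG (blue) and 3 shSPINK2 (orange) libraries. The groups stand apart in all pairs except RAD21 to SMC3, and the mean ratio of ESCO2 to ESCO1 is 1.94 in shNEG and 0.805 in shSPINK2.

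Levels between genes were compared per kilobase of the canonical transcript, as normalised reads per kilobase. In shNEG, PTTG1 (5175 ± 121, SD, n = 3) and RAD21 (3600 ± 36.7) stood highest, followed by SMC1A (1657 ± 6.67), SMC3 (1220 ± 14) and STAG2 (1014 ± 9.35). WAPL (749.7 ± 2.95), ESPL1 (624 ± 8.46) and ESCO2 (444 ± 11.1) came next, and NIPBL (378 ± 6.29) and STAG1 (365 ± 10.1) lay at the foot of the order and did not differ beyond their spread. In shSPINK2 the order of the last genes changed, with STAG1 at 254 ± 13.9, ESPL1 at 227 ± 2.45 and ESCO2 at 209.6 ± 13.0, and SMC1A (1039 ± 57.1) and STAG2 (979.6 ± 82.5) no longer differed beyond their spread. With the length of all annotated exons summed, PTTG1 was still first in shNEG, at 1874, SMC1A (1485) passed RAD21 (916), WAPL (657) and ESPL1 (465) passed SMC3 (435) and STAG2 (392), and ESCO2 (213.5) fell below NIPBL (315) and STAG1 (282) to the foot, so the order below PTTG1 depends on the transcript that is assumed.

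All members are protein-coding genes of GRCh38 (positions from GENCODE 44). SMC1A and STAG2 lie on chromosome X (53374149 to 53422728 and 123960212 to 124422664) and the others on autosomes, among them SMC3 and WAPL on chromosome 10, NIPBL and PTTG1 on chromosome 5, STAG1 on chromosome 3 (136336236 to 136752403) and ESPL1 on chromosome 12 (53268299 to 53293638). Some share exon bases with a gene on the other strand, and the sources used here do not say whether reads were counted by strand, so reads of such pairs may not be separable. STAG1 shares 1661 exon bases with PCCB, a propionyl-CoA carboxylase subunit, which had 4798 normalised reads in shNEG and 5096 in shSPINK2 (log2 fold change 0.09 ± 0.04, adjusted p = 0.0635). RAD21 shares 576 bases with UTP23, a ribosome assembly factor that was lower (-0.16 ± 0.06, adjusted p = 0.0193), and STAG2 shares 241 with TENM1, which was higher (0.41 ± 0.13, adjusted p = 0.0039) at a mean of only 222. SMC1A shares 39 bases with RIBC1, at a mean of 19.0. The near-identical copies of PTTG1 had few reads, with means of 1.32 for PTTG2, 3.00 for PTTG3P and 1.49 for PTTG4P.

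Promoters were searched because several members fell together with mitotic genes. The cell cycle genes homology region (CHR; TTTGAA or TTCGAA) is bound by the DREAM and MuvB complexes, which control mitotic genes, and E2F sites (TTTCCCGC, TTTCGCGC, TTTGCCGC or TTTGGCGC) by E2F factors. Windows of 250 bases before to 50 after the RefSeq start (GRCh38.p14) were read on both strands. CHR words were in 11.8% and E2F words in 5.17% of 10574 promoters of tested genes, and 0.7% held both. Of the 8 members in the promoter table, 2 held a CHR word and 2 an E2F word. Each match is printed with its surroundings on the gene's strand, the word in capitals, to show where it stands in genes that fell and in NIPBL, which was not called.
ESPL1 (CHR, first base at -31, chr12:53268257-53268284): agccgcggataTTTGAAaggagggtctg
SMC3 (CHR on the reverse strand, first base at -151, chr10:110567533-110567560): agaattctagaTTCAAAagaaatccacc
STAG1 (E2F, first base at -183, chr3:136752544-136752571): agcggccacgTTTCCCGCcccgctggtg
NIPBL (E2F, first base at -49, chr5:36876710-36876737): gttgttagtgTTTGGCGCcggcggaggg
The match in ESPL1 was the nearest to the start, followed by that in NIPBL. ESCO2 and RAD21, which were also lower, had no promoter sequence and were not searched. SMC1A, STAG2, WAPL and PTTG1 had neither word in this window. Among the lists below, a CHR word was found in 5 of 7 condensin promoters, 4 of 8 of partners and regulators and 3 of 5 of the release kinases with CCNB1. It was in 4 of 17 of the anaphase-promoting complex, 0 of 7 of the fork-linked factors, 0 of 5 of SMC5/6 and 0 of 4 of the meiotic subunits. An E2F word was in 0 to 2 promoters of each list. These matches are descriptions of letters and no test was made of them.

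The shRNA targets were compared with the members because the word GCTCTCA, part of the shRNA2 target, had been found in earlier work on these data to be more frequent in the 3′ UTRs of genes that fell. The targets, with this word in capitals, are as follows.
shRNA1: tcagggaaggtggtcataata
shRNA2: cgccaaactGCTCTCAgtata
The word stands at bases 10 to 16 of shRNA2 and is absent from shRNA1, the only SPINK2 shRNA that the paper's methods name. Which of them each shSPINK2 library carried is not given. It was in the canonical 3′ UTR of 0 of the 10 members, against 10.4% of 12677 tested genes, of which 48.3% were lower against 28.7% of the genes without it. The word was picked for this excess in these same data, so these 3′ UTR shares are no separate evidence. In coding sequence it was found in STAG1, ESCO2 and ESPL1, and in 12.3% of tested genes, of which 38.4% were lower against 29.6% of the genes without it. The site in STAG1 is tttatgggagaGCTCTCAagaactgttga and that in ESPL1 is cacctgagataGCTCTCAtagactcccat. WAPL held it in its 5′ UTR. SMC1A, SMC3, RAD21 and PTTG1, which were lower, had no match in their canonical transcript. The 3′ UTRs of ESPL1 and PTTG1 are only 167 and 61 bases long, and no word of the shRNA1 target was searched for. What part the word had in the fall of any member was not tested.

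Partners and regulators of the ring included 7 of 10 genes that were lower, 1 that was higher and 2 not called (median log2 fold change -0.49). Beside this list and those below, 23.9% of all genes tested were lower and 22% higher, with a median of 0.00434. Among the genes with a mean of at least 1000, 38.5% were lower. CDCA5 (sororin), which binds the acetylated ring and shields it from WAPL, went from 6156, 6290 and 6171 in shNEG to 3397, 3255 and 3331 in shSPINK2 (-0.90 ± 0.04, adjusted p = 4.59e-103). The shugoshins, which protect centromeric cohesin, fell as well: SGO1 by 1.46 ± 0.08 (adjusted p = 4.74e-81) and SGO2 by 0.71 ± 0.14 (adjusted p = 1.1e-06) on the log2 scale. HASPIN, a histone kinase at centromeres, fell by 0.95 ± 0.07. PDS5A and PDS5B, scaffolds that bridge ring, WAPL and sororin, fell by 0.52 ± 0.05 and 0.27 ± 0.05, and the ratio of PDS5A to PDS5B reads went from 1.77 ± 0.02 to 1.49 ± 0.06 with no overlap of the groups. CTCF, the DNA-binding factor at which loops stop, fell by 0.47 ± 0.05 (adjusted p = 2.04e-24).

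The loader's partner MAU2 was not called, at -0.06 ± 0.04 (adjusted p = 0.305), like NIPBL itself. HDAC8, the deacetylase of SMC3, stood at 0.14 ± 0.07 (adjusted p = 0.0791), and edgeR called it higher (adjusted p = 0.0205). ESCO1 was called higher, at 0.20 ± 0.08 (adjusted p = 0.032), but its groups overlapped, its SD in shSPINK2 was 12.1% of the mean, and the call was lost in 5 of the 6 fits that left out 1 library (adjusted p of 0.0837 to 0.232 in those fits). The meiotic subunits were hardly expressed. REC8 had 87.3 ± 9.27 (SD, n = 3) normalised reads in shNEG and 83.1 ± 7.82 in shSPINK2, STAG3 had 33.0 ± 6.03 in shNEG, SMC1B had 9.24 ± 1.46 in shSPINK2, none of the 3 was called, and RAD21L1 was listed at 0.

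Cohesion factors of the replication fork fell in 7 of 8 genes (median log2 fold change -0.92). DDX11, a helicase that aids cohesion behind the fork, was the lowest at -1.34 ± 0.05, and CHTF8, a subunit of the alternative clamp loader, the highest at -0.02 ± 0.04 (adjusted p = 0.682). Kinases that release cohesin or hold separase in check, listed with the cyclin CCNB1 that binds CDK1, fell in 5 of 5 genes (median -1.19), from PLK1, which phosphorylates STAG2 to open the ring in prophase, at -1.31 ± 0.04, to BUB1, which recruits shugoshin, at -1.07 ± 0.05. The anaphase-promoting complex, which destroys securin, was divided. Of its 18 genes 10 were lower, 2 higher and 6 not called (median -0.17), with the E2 enzyme UBE2C lowest at -1.26 ± 0.05 and the small subunit ANAPC13 highest at 0.49 ± 0.05. The 3 genes of this list lower by more than 1 on the log2 scale were UBE2C, UBE2S and the activator CDC20, which are not core subunits.

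The other SMC complexes were set beside cohesin. In condensin I and II, which compact mitotic chromosomes, 8 of 8 genes were lower, with a median of -0.83 and values from -1.25 ± 0.05 for NCAPG to -0.63 ± 0.05 for NCAPH2. The 95% interval of NCAPH2, -0.73 to -0.53, overlapped those of SMC1A, SMC3, RAD21 and STAG1, while that of NCAPG, -1.35 to -1.15, lay below that of every ring gene. In the SMC5/6 complex, which acts in repair, 3 of the 6 tested genes were lower and 2 higher (median -0.14), from NSMCE4A at -0.59 ± 0.06 to NSMCE1 at 0.51 ± 0.05. EID3 had too few reads to be tested. No test of a difference between these lists was made.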

How the data were processed

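The authors sequenced mRNA of 6 FUJIOKA libraries as paired reads of 150 bases, aligned them to GRCh38 (hg38) with STAR, obtained gene counts from featureCounts and ran DESeq2 on both groups. The submitters' processing notes name STAR 2.7.11 and DESeq2 1.40.0. Annotation release, strandedness and featureCounts version are not given in the sources used here. The authors deposited 1 table. Its mean is a signal, the mean over 6 libraries of counts that the authors divided by size factors. Its log2 fold changes with standard errors, the Wald score and the p-value columns are the authors' own comparison, with adjusted p-values. Those values are not printed. The fold change and standard error served only to recover reads.

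Recovery worked as follows. Values shared by at least 500 genes with 1 read give the weight of 1 read in each library, and the sign of the fold change gives the group. Whole reads were then sought whose weighted sum equals the mean to 15 digits and whose DESeq2 estimate lies within 1e-12 of the deposited one. Of 32220 genes 26280 had 1 solution and 0 had more. The genes with 1 solution hold 71.2% of the mean counts. Of the 17395 genes with a deposited adjusted p-value 17125 had 1 solution, and those of them without a solution had high means (median 29518). The means of the other genes without a solution were not summarised. On simulated data 399 of 400 genes were recovered and 0 were wrong. Recovered libraries carry no replicate number.

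The reads were fitted anew with DESeq2 1.42.0 (R 4.3.3), with the recovered size factors, no covariate, the Wald test and Benjamini-Hochberg adjustment, although the plan had been to make no new fit for a table without values per library. Independent filtering left 17618 genes. On simulated reads for this comparison (26280 genes) it called 84 of 100 genes changed by 0.5 and 95 of 100 changed by 1 on the log2 scale, with 9 of 17315 unchanged genes. In the data many more genes were called, 4214 lower and 3876 higher, and the shSPINK2 libraries were spread more widely than the shNEG libraries. Whether the simulated shares hold for such data was not tested. Intervals are 95% normal intervals of the fitted log2 fold change. Ratios were tested by exact permutation. Alternatives were edgeR 4.0.16, other adjustments, filters and size factors, centring, shrinkage, other null hypotheses and leaving out each library. Gene lengths and positions are from GENCODE 44 (same build), promoters from RefSeq (GRCh38.p14, 8 of 10 members matched by symbol).

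The members and gene lists were chosen with earlier results of these data known. Named genes are the members, SPINK2, every tested partner, the lowest and highest gene of each list, overlapping or near-identical genes and cell type markers; CDC20, UBE2S and EID3 and the matches of the words were named after their values were seen. Scripts ran on Python 3.11.15 with scipy 1.17.1, numba 0.67.0, numpy 2.4.6 and pandas 2.3.3, and plots were drawn in matplotlib 3.10.9.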

Additional observations from a re-analysis of the deposited data

How the results depend on the processing

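Of 190 fold changes of single members under 19 alternatives, 181 counted as the same, 4 lost the call, 3 gained one and 2 reversed. Alternatives that changed only the adjustment, the set of genes, the threshold or the null kept the main fold change. Their direction, and that of the shrunken values, was thus fixed in advance. Shrunken values have no p-value and counted as the same when within 1 SE of the main value. The 4 lost calls were SMC1A, SMC3, RAD21 and STAG1 when the test was made against a 1.5-fold change instead of no change, which left 3 members lower (ESCO2, ESPL1 and PTTG1) and 3 partners, 3 genes of the anaphase-promoting complex and 0 of SMC5/6 lower, with 0 higher in each of these lists. With a library left out STAG2 ran from -0.11 to 0.01 and NIPBL from -0.0055 to 0.12, and the reversals were STAG2 (0.0097 without shSPINK2 library c) and NIPBL (-0.0055 without shSPINK2 library b), neither of them called. Members higher were 0 to 1 with a library left out, NIPBL being the 1. At a threshold of 1.5-fold in place of 2-fold 4 members were lower by more than the threshold, and 1, ESPL1, in a test against a 2-fold change.

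Among the lists, the 1 higher partner, ESCO1, became 0 under the Benjamini-Yekutieli and Bonferroni adjustments and at an adjusted p under 0.01, 0 to 1 with a library left out, and 2 with edgeR in each of its 3 settings, which added HDAC8. In SMC5/6 the 2 higher genes became 1 under those 3 stricter rules, and 1 to 2 with a library left out, and the 3 lower genes became 1 under Bonferroni. In the anaphase-promoting complex the 2 higher genes became 1 under Bonferroni. The causes were not tested. The median that centring removed was -0.00905. EdgeR with the deposited size factors and DESeq2 size factors estimated again were added after seeing the data. No paired analysis was possible because the recovered libraries carry no replicate number.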
